A study of Mus musculus with 89 samples.

Results

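The Zscan4 genes and a small set of genes that share their expression in the 2-cell embryo were followed in mouse embryonic stem cells (ESCs) that lack Esrrb, Nr5a2 or both. The genes described are Zscan4a, Zscan4b, Zscan4c, Zscan4d, Zscan4e and Zscan4f, Tcstv1, Tcstv3, Zfp352 and Usp17lc, which are 10 of the 54146 genes in the deposited tables and were found there by their symbols. In the mouse embryo, the 2-cell stage is when the embryo's own genome is first strongly transcribed, and these genes are among those switched on in that burst and silenced soon after. In ESC cultures, a small and changing fraction of cells re-enters a comparable state for a short time, so that a bulk measurement of these genes averages a few cells with much RNA and many with almost none. The Zscan4 genes encode nuclear proteins with a SCAN domain and zinc fingers that have been linked to telomere elongation in ESCs. Tcstv1 and Tcstv3 belong to a small family named after its variable expression at the 2-cell stage, Zfp352 encodes a zinc-finger protein, and Usp17lc belongs to the Usp17-like family of deubiquitinating enzymes. Because the Zscan4 genes are close copies of one another, their sum is given beside the single genes.

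All 20 RNA-seq libraries came from EKOiE ESCs. In these cells the native Esrrb gene is disrupted and the cells make Esrrb from a transgene that doxycycline (Dox) switches on, so the controls carry the disruption and the transgene too. The control state (+E+N) is EKOiE cells kept in Dox at 1 µg/ml, and −E is that line taken off Dox for 2 days. In EKOiE NrKO cells both Nr5a2 alleles are disrupted in the exon for the DNA-binding domain, and these cells are called −N with Dox and −E−N once Dox has been absent for 2 days. Each of the 4 states was cultured without feeders in FCS/LIF, with serum (n = 2), and in 2i/LIF, without serum and with inhibitors of Mek and Gsk3 (n = 3). The −N and −E−N states rest on the knockout line, so an effect of that line and one of losing Nr5a2 cannot be told apart, nor can the medium and the culture series. The labels do not say which replicates came from separate cultures. The study's figure legends call each RNA-seq replicate an independent experiment. The p-values measure the spread between these libraries.

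The libraries held 36514172 to 45443379 counts in FCS/LIF and 26653035 to 32526534 in 2i/LIF. As a check of the labels, Esrrb lay at 163 to 249 TPM (a level scaled to gene length and to the library) among FCS/LIF controls, at 38.9 to 40.1 with −E and at 16.8 to 19.2 with −E−N. In 2i/LIF it lay at 187 to 273, 113 to 133 and 31.1 to 49.9 TPM, and the fall in −E did not pass the test on counts there (log2 fold change −0.46). Whether RNA from the disrupted Esrrb gene adds to these values was not tested. Nr5a2 RNA in −N differed from +E+N by −0.55 in FCS/LIF and −0.05 in 2i/LIF on the log2 scale, neither past the test, and since the disrupted gene can still be transcribed this does not check the genotype. The 8 ESC markers examined all had a mean of at least 1 TPM in every group. Their summed level was lowest in −E−N in 2i/LIF, at 2714 to 3665 TPM against 7306 to 7679 in +E+N, and its part in the results below was not tested.

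On the mm10 build, the Zscan4 copies lie in one cluster on chromosome 7 that spans 608.1 kb from the first to the last. Zscan4a lies at chr7:10794242-10799057 on the minus strand and is annotated as an unprocessed pseudogene. Zscan4b (chr7:10900740-10905050), Zscan4d (chr7:11161374-11166159) and Zscan4e (chr7:11306378-11310682) lie on the minus strand too. Zscan4c (chr7:11005745-11010547) and Zscan4f (chr7:11397915-11402318) lie on the plus strand, and each copy has 4 exons. Usp17lc lies on the same chromosome, at chr7:103415072-103419880 (plus strand). Tcstv1 (chr13:119893388-119894785, minus strand) and Tcstv3 (chr13:120316878-120318178, plus strand) share chromosome 13, and Zfp352 lies at chr4:90218820-90225702 (plus strand).

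The close copies in the Zscan4 cluster carry nearly the same promoter, and the 4 copies with a RefSeq promoter sequence (GRCm38.p6) are shown because they hold the half-site of the factors removed here. Of the 10 genes, 6 had such a sequence, which runs from 250 bases before to 50 bases after the start. The stretch printed is 190 bases long and reads in the direction of the gene, from a shared nuclear-receptor half-site to a shared TATA box. It covers chr7:10905074-10905263 (minus strand) for Zscan4b and chr7:11005509-11005698 (plus strand) for Zscan4c. For Zscan4d it covers chr7:11166206-11166395 (minus strand), and for Zscan4f it covers chr7:11397702-11397891 (plus strand). Capitals mark the 12 positions that are not the same in all 4 copies.
Zscan4b: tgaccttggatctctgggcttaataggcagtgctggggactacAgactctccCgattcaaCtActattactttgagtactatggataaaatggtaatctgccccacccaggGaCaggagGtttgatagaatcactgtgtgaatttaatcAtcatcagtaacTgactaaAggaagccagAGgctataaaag
Zscan4c: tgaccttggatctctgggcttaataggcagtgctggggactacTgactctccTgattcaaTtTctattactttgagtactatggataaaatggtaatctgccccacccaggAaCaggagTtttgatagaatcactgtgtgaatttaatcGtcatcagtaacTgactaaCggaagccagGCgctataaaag
Zscan4d: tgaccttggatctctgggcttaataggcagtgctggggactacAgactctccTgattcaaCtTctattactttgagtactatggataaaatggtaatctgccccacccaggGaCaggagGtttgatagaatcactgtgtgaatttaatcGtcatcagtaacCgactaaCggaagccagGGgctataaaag
Zscan4f: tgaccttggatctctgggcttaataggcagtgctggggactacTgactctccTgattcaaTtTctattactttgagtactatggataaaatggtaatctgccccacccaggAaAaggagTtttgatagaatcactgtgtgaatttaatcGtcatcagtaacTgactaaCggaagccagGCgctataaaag
Pairs of copies differed at 1 (Zscan4c and Zscan4f) to 11 bases (Zscan4b and Zscan4f). The motif AAGGTCA, the half-site that Esrrb and Nr5a2 are known to recognise, was searched on both strands. It is read as TGACCTT at the beginning of all 4 stretches, on the strand opposite to the gene, with its first base 213, 236, 247 and 213 bases before the RefSeq start of Zscan4b, Zscan4c, Zscan4d and Zscan4f. For Zscan4d the RefSeq start is not the GENCODE start given above. Among 32851 promoters of the same length, 4.72% held it. As an exact match, the extended form TCAAGGTCA, which contains the half-site, was found in 0.423% of all promoters and in none of the 6. All 4 stretches differ from it by 1 base next to the half-site. Matches with 1 mismatch, which the study's motif scan of bound regions allowed, were not counted. TATAAA, at the end of each stretch, was found in 13.6% of promoters and in 5 of the 6, all but Zfp352.

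Zfp352 carried the C variant of the half-site, AAGGCCA, which 6.2% of promoters held on either strand. The 60 bases before its start (chr4:90218760-90218819, plus strand) are shown with that motif in capitals.
Zfp352: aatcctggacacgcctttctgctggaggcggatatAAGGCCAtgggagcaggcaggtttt
These matches describe letters only, and no measurement of binding at these windows was used here.

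How well the copies can be told apart sets how their single values may be read. Of the 150-base windows of each gene's transcript, the length of 1 read, the share also found in another gene was 77.4% for Zscan4f, 75% for Zscan4e, 66.4% for Zscan4b and 61% for Zscan4c. It was 25.1% for Zscan4a and 13% for Zscan4d. Most of what Zscan4f shares, 62% of its windows, is shared with Zscan4-ps2, which this annotation lists as protein-coding. Usp17lc shared 29.4% of its windows, all with Usp17ld, and Tcstv1, Tcstv3 and Zfp352 shared none. The counts are RSEM estimates that divide such reads among copies, so the single values of Zscan4b, Zscan4c, Zscan4e and Zscan4f are less certain than the family sum.

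The Zscan4 sum, in CPM (counts scaled to the library size, here with TMM factors over the 20 libraries), was highest in −E−N cells in 2i/LIF and lowest in the 2i/LIF controls. In FCS/LIF it was 39.8 and 65.8 CPM for +E+N, 84.7 and 144 for −E, 32.1 and 27 for −N, and 53.3 and 67.4 for −E−N. Both −E libraries lay above both controls and both −N libraries below them, while the −E−N libraries overlapped the controls. In 2i/LIF the sum was 9.46, 11.3 and 16.3 CPM for +E+N, 17.6, 18.8 and 40.1 for −E, 40.9, 51.2 and 102 for −N, and 138, 142 and 377 for −E−N. Neighbouring states in that order did not overlap in CPM in 2i/LIF, by narrow margins at 16.3 against 17.6 and 40.1 against 40.9. In TPM, −E and +E+N overlapped there for 8 of the tested members, all but Zscan4a. Of all genes tested, 12% had their −E libraries above +E+N in CPM. The means were 12.3 ± 3.56, 25.5 ± 12.7, 64.8 ± 32.9 and 219 ± 137 CPM (SD, n = 3), and 1 library, the replicate numbered 3, was the highest of its state each time. Because these are bulk samples, more cells in the 2-cell-like state and more RNA per such cell cannot be told apart.

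**Figure D1:**
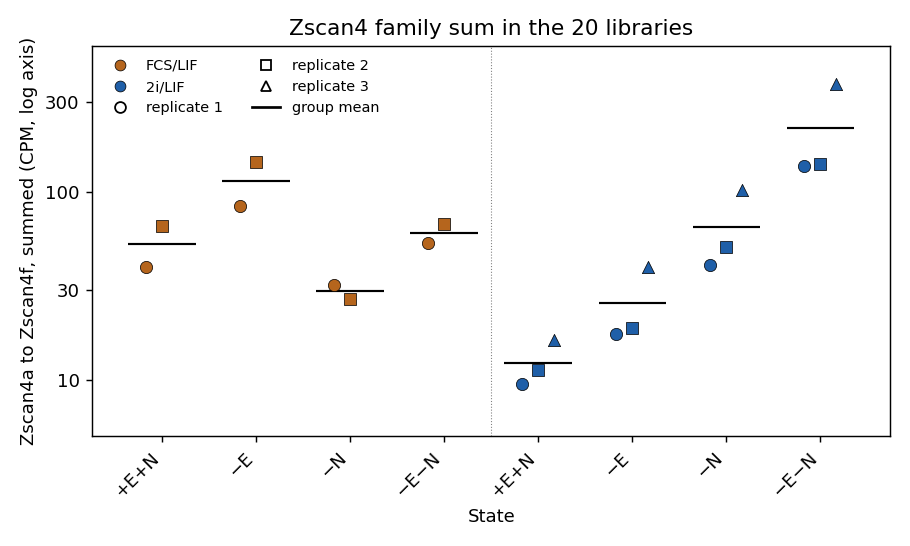
Summed Zscan4a to Zscan4f in each of the 20 libraries, in CPM on a log axis, by state, with FCS/LIF and 2i/LIF in separate colours and a short bar at each group's mean. The 2i/LIF points climb from 9.46 to 16.3 CPM in +E+N to 138 to 377 in −E−N, whereas in FCS/LIF the −E libraries are the highest, at 84.7 and 144, and −N the lowest.

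Loss of both factors in 2i/LIF raised every member that could be tested. A gene was called where its p from the quasi-likelihood test of edgeR, adjusted by Benjamini and Hochberg's method over all genes tested, was under 0.01 and its fold change over 1.5. In −E−N against +E+N, all 9 members that were tested were called higher, where 18.6% of the 14355 genes tested were called and 9.06% were called higher. Their log2 fold changes ran from 3.73 to 4.62 with a median of 4.04, against 0.01 for all genes tested. The Zscan4 sum rose by 4.17 ± 0.514 (SE), or 18-fold (adjusted p = 4.63e-05, edgeR). Every −E−N library lay above every control library for all 9 genes, in CPM and in TPM, as it did in CPM for 25.1% of the genes tested.

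The remaining member, Tcstv1, was at most 3 counts in any library and at 0 in 11 of the 20, with a highest level of 0.18 TPM, and was not tested. Its values are at or under the limit of 3 counts that a count of 0 allows, so no fold change is given for it. The 9 others passed the filter of at least 20 counts in all replicates of a group. In 2i/LIF, 5 of them passed it in +E+N already, and 4, Zscan4b, Tcstv3, Zfp352 and Usp17lc, passed only through −N or −E−N, where they were high. The calls of those 4 were therefore favoured by the filter, and Tcstv3 had 3 or 4 counts in each control library.

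Zscan4f was the most abundant member in every group. In 2i/LIF it read 2.2, 3.39 and 4.33 TPM for +E+N, 3.77, 5.08 and 11.7 for −E, 12.1, 14.4 and 31.4 for −N, and 39.6, 42.9 and 117 for −E−N, where its log2 fold change was 4.25 ± 0.550. Its FCS/LIF values were 10.6 and 18.6 TPM for +E+N, 27.2 and 45.6 for −E, 9.77 and 8.69 for −N, and 18.6 and 27.9 for −E−N. Thus the lowest −E−N library in 2i/LIF lay above every FCS/LIF library but 1, the second −E replicate.

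Zscan4c is the copy whose transgenic expression has been used to lengthen telomeres in ESCs. It read 1.3, 1.57 and 2.04 TPM for +E+N in 2i/LIF, 1.97, 2.12 and 5.17 for −E, 4.84, 5.87 and 12.5 for −N, and 16.7, 18.2 and 45.7 for −E−N. Its log2 fold change in −E−N was 4.04 ± 0.513. In FCS/LIF the values were 5.85 and 8.62 TPM for +E+N, 10.6 and 19.5 for −E, 4.57 and 3.53 for −N, and 7.69 and 8.78 for −E−N.

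Zscan4d, the copy known as the main one in the 2-cell embryo, stood at 1.04, 1.25 and 1.76 TPM for +E+N in 2i/LIF, 1.58, 1.53 and 3.18 for −E, 3.44, 4.85 and 8.68 for −N, and 12.3, 13.2 and 35.6 for −E−N (log2 fold change 3.91 ± 0.486). The FCS/LIF values were 2.19 and 3.55 TPM for +E+N, 5.3 and 8.96 for −E, 1.81 and 1.84 for −N, and 4.1 and 4.56 for −E−N. It shares the fewest windows of the 6 copies, and it followed the order of the sum in 2i/LIF with an overlap between +E+N and −E.

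Zscan4e had the largest change of the 9 genes in −E−N in 2i/LIF, at 4.62 ± 0.574 on the log2 scale. Its levels there were 0.99, 0.82 and 1.96 TPM for +E+N, 1.43, 3.12 and 5.35 for −E, 5.52, 6.62 and 14.7 for −N, and 19.9, 20.8 and 52.3 for −E−N. In FCS/LIF they were 5.56 and 10.3 TPM for +E+N, 15.3 and 26.1 for −E, 5.17 and 4.72 for −N, and 9.64 and 12.1 for −E−N. With 75% of its windows shared, its estimate leans on how reads were divided among the copies.

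Zscan4b was the least abundant copy in every group by its mean TPM, and Zscan4a is the annotated pseudogene. In 2i/LIF, Zscan4a read 0.62, 0.62 and 0.87 TPM for +E+N, 1.21, 0.9 and 1.94 for −E, 2.36, 3.2 and 6.49 for −N, and 6.42, 6.81 and 16.0 for −E−N. Zscan4b read 0.29, 0.48 and 0.32 TPM for +E+N, 0.44, 0.54 and 1.35 for −E, 0.89, 1.74 and 3.7 for −N, and 4.64, 4.65 and 14.7 for −E−N. Their log2 fold changes in −E−N were 3.77 ± 0.470 and 4.46 ± 0.658. In FCS/LIF, Zscan4a read 3.18 and 5.47 TPM for +E+N, 6.55 and 11.1 for −E, 2.26 and 1.98 for −N, and 2.85 and 3.89 for −E−N. Zscan4b read 1.17 and 2.07 TPM for +E+N, 3.39 and 5.15 for −E, 1.07 and 1.03 for −N, and 2.15 and 2.48 for −E−N. Zscan4a was the member with the lowest value in −E−N relative to the FCS/LIF controls.

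Tcstv3 was the Tcstv gene with enough counts to test. In 2i/LIF it stood at 0.55, 0.35 and 0.23 TPM for +E+N, 0.49, 0.48 and 0.42 for −E, 0.46, 0.89 and 1.51 for −N, and 3.56, 3.02 and 6.84 for −E−N (log2 fold change 4.08 ± 0.488). In FCS/LIF it stood at 0.56 and 2.31 TPM for +E+N, 2.71 and 3.46 for −E, 0.47 and 1.08 for −N, and 1.1 and 2.2 for −E−N. In TPM, the −E values lay inside the range of the 2i/LIF controls, at 3 to 6 counts a library, and the FCS/LIF controls differed from each other more than for any Zscan4 copy. The sum of Tcstv1 and Tcstv3 rose by 3.99 ± 0.486 in −E−N in 2i/LIF (adjusted p = 4.2e-05, edgeR).

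Zfp352 was the least abundant gene tested. It read 0.1, 0.04 and 0.08 TPM for +E+N in 2i/LIF, 0.22, 0.09 and 0.22 for −E, 0.21, 0.29 and 0.57 for −N, and 0.49, 0.55 and 1.68 for −E−N (log2 fold change 3.76 ± 0.661). The FCS/LIF libraries gave 0.29 and 0.58 TPM for +E+N, 0.86 and 1.38 for −E, 0.24 and 0.35 for −N, and 0.47 and 0.9 for −E−N. Its −N and −E−N libraries overlapped in 2i/LIF, as those of Zscan4a did in TPM.

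Usp17lc rose with the others in 2i/LIF. Its levels were 0.27, 0.37 and 0.32 TPM for +E+N, 0.52, 0.35 and 1.02 for −E, 0.93, 0.93 and 1.87 for −N, and 2.82, 3.34 and 6.78 for −E−N (log2 fold change 3.73 ± 0.454). In FCS/LIF they were 0.79 and 1.29 TPM for +E+N, 2.89 and 4.01 for −E, 0.67 and 0.56 for −N, and 1.57 and 1.96 for −E−N. Zscan4 transcripts made up 87.5% to 95.1% of the summed TPM of the 10 genes in every library, so the other families add little to their total.

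**Figure D2:**
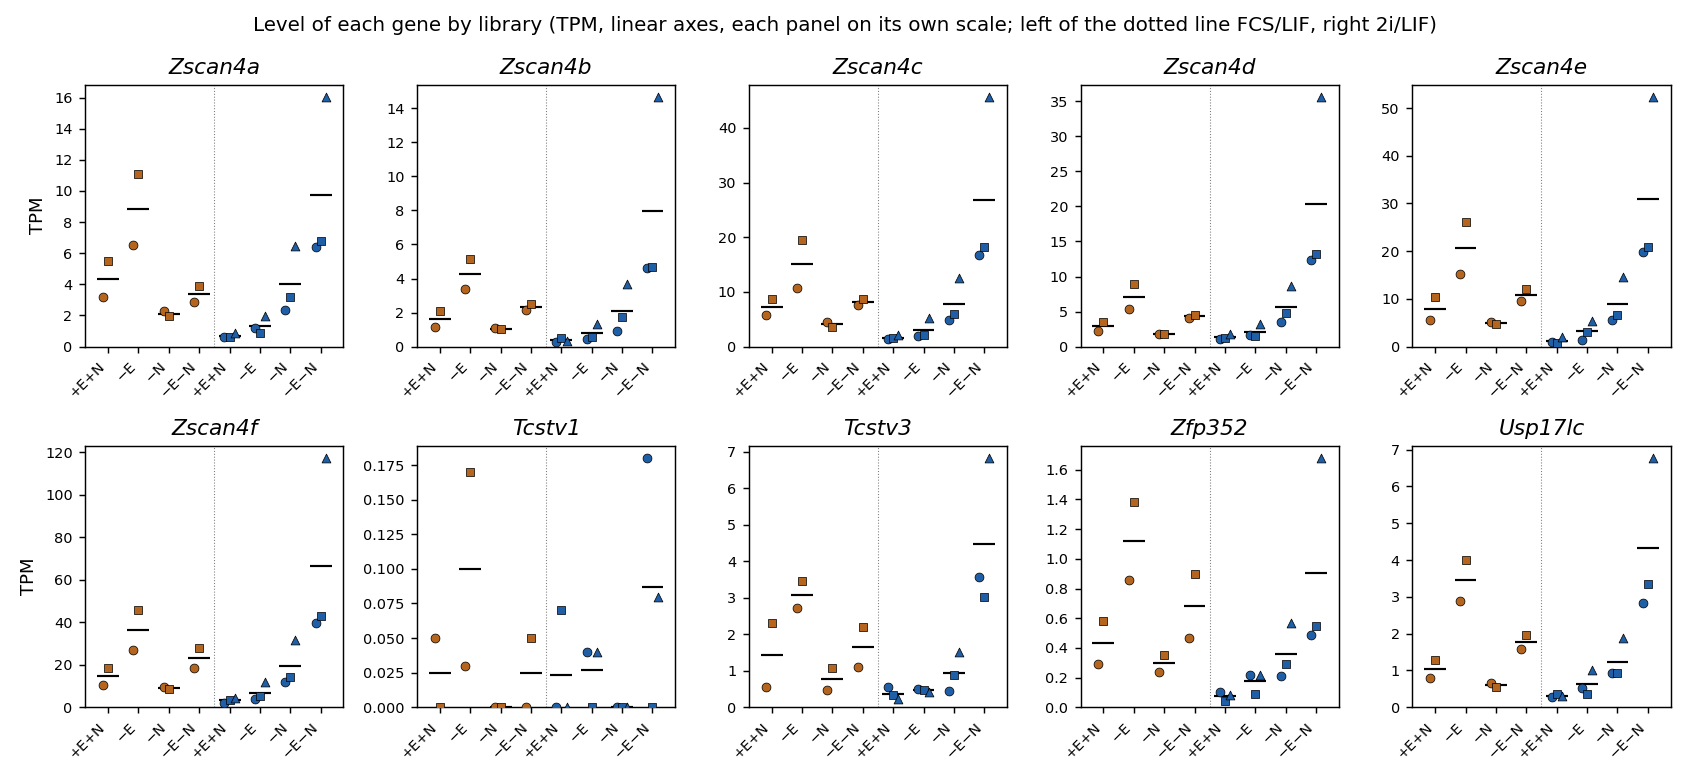
Level of each gene in TPM, 1 point per library on linear axes with a separate scale in each panel, with FCS/LIF left and 2i/LIF right of the dotted line. In 2i/LIF the −E−N group is the highest for the 9 tested genes, with 1 −N library of Zfp352 and 1 of Zscan4a above the lowest −E−N value of that gene, and Tcstv1 does not exceed 0.18 TPM.

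Loss of Nr5a2 alone in 2i/LIF gave mean levels between those of the control and of the double loss. In CPM, all 9 genes had their −N libraries above their control libraries, which held for 15.4% of genes tested, and in TPM 8 did, all but Tcstv3. The log2 fold changes were 1.86 (Tcstv3) to 2.83 (Zscan4e) with a median of 2.37. Zscan4b and Usp17lc passed the count filter only through −N and −E−N, and Tcstv3 and Zfp352 only through −E−N. The place of these 4 among the 9 was therefore favoured by the filter. The test called 2 of the 9, Zscan4a (2.50 ± 0.464, adjusted p = 0.00503, edgeR) and Zscan4e (2.83 ± 0.563, adjusted p = 0.00738, edgeR), where 3.65% of genes tested were called. The Zscan4 sum rose by 2.39 ± 0.489, or 5.23-fold (adjusted p = 0.00848, edgeR). Blocking on the replicate number, the test called 8 of the 9, all but Tcstv3 (adjusted p = 0.0149, edgeR), and the sum rose by 2.33 (adjusted p = 1.08e-07, edgeR). Zscan4b, Zfp352 and Usp17lc among them were favoured by the filter. The share of all genes called with the block is not given here, so that count is not set against all genes. Without the block, leaving out any 1 of 8 of the 12 libraries ended the call of the sum, with an adjusted p of up to 0.0416 by edgeR and values from 1.89 to 2.65. Those were the 3 +E+N libraries, −E replicates 1 and 2, −N replicates 2 and 3, and −E−N replicate 2. The number of members called fell to 0 without any one of the +E+N libraries or of −N replicates 2 and 3, was 1 without −E replicate 2, and reached 6 without −E−N replicate 3.

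Loss of Esrrb alone in 2i/LIF gave smaller differences that the test did not call. The log2 fold changes of −E against +E+N lay between 0.67 (Zscan4d) and 1.44 (Zfp352), with a median of 0.97, and 6 of the 9 genes had all −E libraries above the controls in CPM, where 12% of genes tested did. In TPM 1 of the 9 did, Zscan4a. By edgeR 0 of the 9 were called, 1 had an unadjusted p under 0.05, and DESeq2 and limma also called 0, where 1.55% of genes tested were called. The Zscan4 sum differed by 1.05 ± 0.486 (adjusted p = 0.248, edgeR). With the replicate number as a block, Zscan4c (0.87), Zscan4f (1.16) and Zscan4e (1.38) were called, and the sum rose by 1.00 (adjusted p = 2.55e-04, edgeR). These blocked calls are not set against the share of all genes called with the block.

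The double loss in 2i/LIF was also set against each single loss. Against −E, all 9 tested genes were called higher, by 2.32 (Zfp352) to 3.33 (Zscan4b) on the log2 scale, where 13.1% of genes tested were called and 6.9% were called higher. Of the 9, 4 did not pass the count filter in −E (Zscan4b, Tcstv3, Zfp352 and Usp17lc), so their calls were favoured by the filter. The sum rose by 3.12 ± 0.484 (adjusted p = 0.00045, edgeR). By limma on log2(TPM + 1) Zfp352 was not called (0.64, adjusted p = 0.0304). Against −N, the changes were 1.28 (Zscan4a) to 2.22 (Tcstv3), and Zscan4d (1.85), Tcstv3 and Usp17lc (1.81) were called, where 6.76% of genes tested were called. Tcstv3 passed the filter only in −E−N, so its call was favoured too. The sum differed by 1.78 ± 0.455 (adjusted p = 0.0163, edgeR) and was not called. With the replicate number as a block all 9 were called against −N, and the sum rose by 1.73 (adjusted p = 2.97e-07, edgeR). The share of all genes called with the block is not given here. The count against −N was 0 without −N replicate 2 or without −E−N replicate 3, was 1 without −N replicate 1, −E−N replicate 2 or either of +E+N replicates 2 and 3, and was 2 without +E+N replicate 1 or −E replicate 1 or 2.

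Whether the double loss exceeded the sum of the single changes was tested as an interaction. The interaction of the 2 losses in 2i/LIF was 0.73 ± 0.657 on the log2 scale for the Zscan4 sum (adjusted p = 0.694, edgeR), and ran from −0.05 (Zfp352) to 1.44 (Tcstv3) for single genes. By edgeR 0 of the 9 were called, 0 had an unadjusted p under 0.05, and DESeq2 and limma also called 0, where 0.307% of genes tested were called.

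In FCS/LIF, loss of Esrrb was the state with the highest level of all 9 tested genes. The −E libraries lay above the controls for all 9 in CPM, where 34% of genes tested did so, with log2 fold changes from 0.91 (Zscan4a) to 1.56 (Usp17lc) and a median of 1.2. Tcstv3 passed the count filter in FCS/LIF only through −E, where it was high, so its place among them was favoured by the filter. Usp17lc was the 1 gene called (1.56 ± 0.293, adjusted p = 0.00695, edgeR), where 5.76% of the 15636 genes tested were called. The Zscan4 sum differed by 1.10 ± 0.275, or 2.14-fold (adjusted p = 0.0244, edgeR), short of the threshold. The count fell to 0 without +E+N replicate 1, −E replicate 2 or either −E−N library, and 3 genes were called without +E+N replicate 2. Usp17lc itself lost its call without −E replicate 1 too, with an adjusted p of up to 0.0678 by edgeR over the libraries left out.

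In −N cells in FCS/LIF the values lay below the control for all 9 tested genes, short of the test. The log2 fold changes of −N against +E+N lay between −1.10 (Tcstv3) and −0.63 (Zfp352), with a median of −0.86, and 7 of the 9 genes had both −N libraries below both controls in CPM, where 18.3% of genes tested did. By edgeR 0 were called and 6 had an unadjusted p under 0.05, DESeq2 called 1 and limma 0, where 0.173% of genes tested were called. The Zscan4 sum differed by −0.86 ± 0.283 (adjusted p = 0.173, edgeR).

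After loss of both factors in FCS/LIF the genes lay near the control level. The log2 fold changes ran from −0.52 (Zscan4a) to 0.64 (Usp17lc), the groups overlapped in CPM for 7 of the 9 genes (39.2% of genes tested had both −E−N libraries above both controls), and the Zscan4 sum differed by 0.17 ± 0.276 (adjusted p = 0.635, edgeR). By edgeR 0 of the 9 were called, 0 had an unadjusted p under 0.05, and DESeq2 and limma also called 0, although 18.8% of all genes tested were called in that comparison. Against −N, Usp17lc was called (1.50, adjusted p = 0.00816, edgeR), where 10.1% of genes tested were called, and the sum differed by 1.03 ± 0.283 (adjusted p = 0.0227, edgeR). Without either −N or either −E−N library that count was 0, and without either +E+N library it was 3. Against −E, the 9 genes differed by −1.43 (Zscan4a) to −0.76 (Zscan4d) with both −E−N libraries below both −E libraries in CPM, where 34.2% of genes tested were. In TPM that held for 7 of the 9, all but Zscan4f and Zfp352. The sum differed by −0.92 ± 0.274 (adjusted p = 0.0438, edgeR). By edgeR 0 were called there and 8 had an unadjusted p under 0.05, DESeq2 called 1 and limma 0, where 5.05% of genes tested were called. The interaction ran from −0.34 (Zscan4a) to 0.17 (Tcstv3), with 0 called by edgeR, DESeq2 and limma and 0 at an unadjusted p under 0.05, where 0.032% of genes tested were called.

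**Figure D3:**
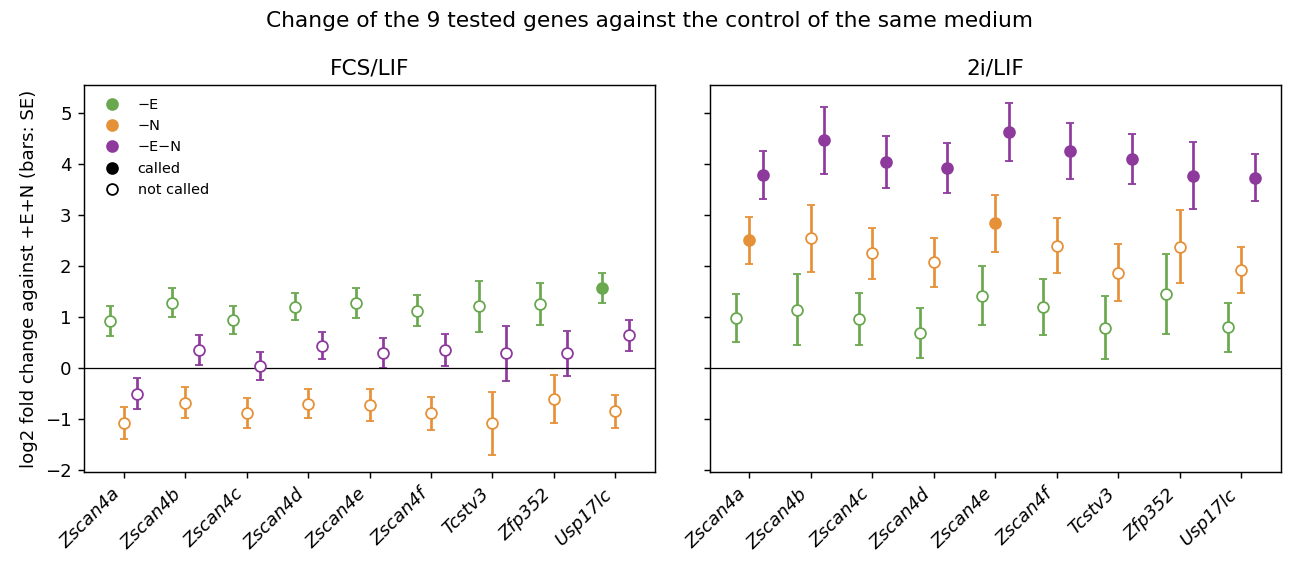
log2 fold change of the 9 tested genes against +E+N of the same medium, with bars for the SE, filled where called. In 2i/LIF the 9 genes lie at 3.73 to 4.62 in −E−N and 1.86 to 2.83 in −N, and in FCS/LIF −N lies below 0 for all 9.

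The media differed in the control cells and in the response. In +E+N, the Zscan4 sum was lower in 2i/LIF than in FCS/LIF by 2.10 on the log2 scale (SE 0.482, adjusted p = 0.00124, edgeR), and 8 of the 9 genes were called lower, all but Zscan4d (−1.06, adjusted p = 0.0655, edgeR). The largest difference was that of Zfp352 (−2.68), and 34.7% of the 16147 genes tested across media were called, 17.5% lower. Without FCS/LIF +E+N replicate 2, only 1 of the 9 genes was called and the sum differed by −1.70 (adjusted p = 0.0226, edgeR). The count was 3 without 2i/LIF +E+N replicate 1 or 2, and 5 without 2i/LIF +E+N replicate 3 or either FCS/LIF −N library.

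The response to the double loss was larger in 2i/LIF for all 9 genes, by 3.05 (Usp17lc) to 4.3 (Zscan4e) on the log2 scale. All 9 differences were called, where 13.2% of genes tested were called, and the difference of the Zscan4 sum was 3.96 ± 0.688 (adjusted p = 0.000531, edgeR). By limma on log2(TPM + 1) 6 were called, without Zscan4b (2.18, adjusted p = 0.0127), Tcstv3 (1.74, adjusted p = 0.0126) and Zfp352 (0.55, adjusted p = 0.198). Without FCS/LIF −E−N replicate 1, or without FCS/LIF +E+N replicate 2, 5 of the 9 were called. The response to −N was also larger in 2i/LIF, by 2.76 to 3.57, and Zscan4a alone was called (3.57 ± 0.655, adjusted p = 0.00775, edgeR), where 0.743% of genes tested were called. For the sum that difference was 3.23 ± 0.688 (adjusted p = 0.0168, edgeR). That count fell to 0 without any one of 11 libraries, all of +E+N in both media, both −N and both −E−N of FCS/LIF, and −N replicates 2 and 3 of 2i/LIF, and 5 genes were called without −E−N replicate 3 of 2i/LIF. The response to −E was not shown to differ between media, with differences from −0.79 (Usp17lc) to 0.18 (Zfp352), 0 called by edgeR, DESeq2 and limma, 0 at an unadjusted p under 0.05, and 1.06% of genes tested called. For the Zscan4 sum it was −0.06 ± 0.678.

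Libraries of 1 number tended to be the highest of their state for these genes, except in −N in FCS/LIF. In FCS/LIF, replicate 2 was the highest of its state for all 9 tested genes in +E+N, −E and −E−N. In −N it was the highest for 2 of 9, and replicate 1 was for 7. In 2i/LIF, replicate 3 was the highest for 6 genes in +E+N, 7 in −E and all 9 in −N and −E−N. Set against the control library of the same number, the ratio in CPM in −E−N in 2i/LIF ran from 6.91 to 45.6 over the 9 genes (median 12.8). It ran from 1.70 to 11.6 in −N and from 0.917 to 4.31 in −E. In FCS/LIF, where the numbers were not taken as pairing the libraries, it ran from 1.65 to 4.19 in −E. There it was 0.354 to 0.897 in −N and 0.666 to 1.95 in −E−N. The genes rest on the same few libraries and no such ratios were taken for other genes, so these are descriptions. With the 2i/LIF libraries numbered 3 left out together, 9 genes were still called in −E−N against +E+N and 5 in −N. The shares of all genes called in that fit are not given here.

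The make-up of the Zscan4 sum was set beside its level. Zscan4f held 23.7% to 34% of the family count across the 20 libraries, Zscan4c 19.7% to 26.4%, Zscan4e 9.57% to 21.6% and Zscan4b 2.56% to 5.61%. Zscan4d held 9.19% to 12% in FCS/LIF and 14.1% to 20.3% in 2i/LIF, with no overlap between the media. Zscan4a held 14.2% to 14.4% in +E+N and 8.38% to 9.23% in −E−N in FCS/LIF, and 9.38% to 12.2% and 7.46% to 8.4% in 2i/LIF. No test was run on the shares, and Zscan4a and Zscan4d are the copies that share the fewest windows with other genes.

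**Figure D4:**
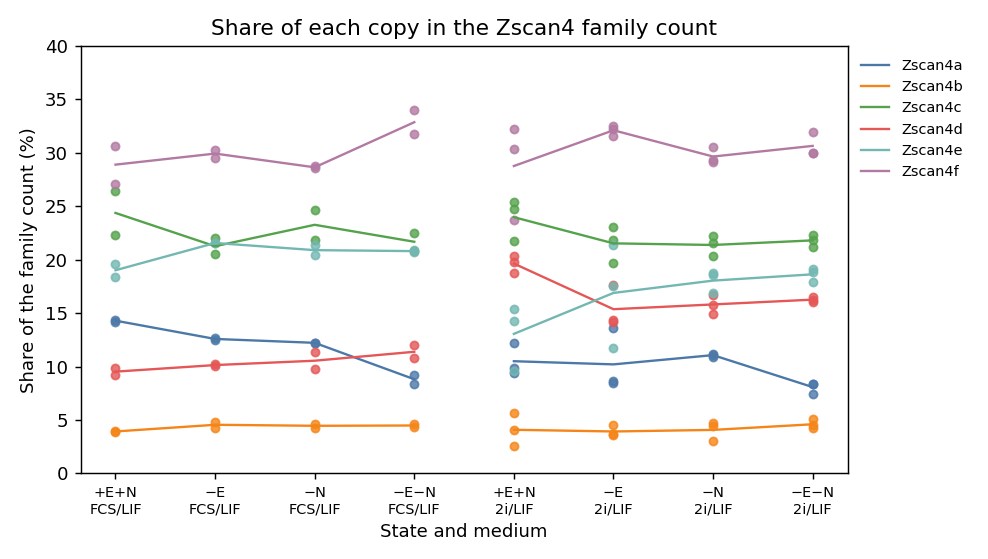
Share of each copy in the summed Zscan4 count, in percent, by state and medium, with 1 point per library. Zscan4f has the largest mean share in every group, and Zscan4d lies at 9.19% to 12% in FCS/LIF and 14.1% to 20.3% in 2i/LIF.

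The members followed each other closely from library to library. On log2(CPM + 1) with the mean of each medium removed, Pearson's r over the 20 libraries was 0.965 to 0.993 for the 15 pairs of Zscan4 copies and 0.905 to 0.983 for the 21 pairs across families. With the mean of each group removed, so that only differences between replicates remained, it was 0.875 to 0.974 and 0.742 to 0.96. Copies share windows, and all points share libraries and scaling, so these are descriptions. Among 14910 other genes averaging 20 counts or more, the 8 whose pattern was most like the Zscan4 sum were Zscan4-ps2 (0.995), Zscan4-ps3 (0.99), Gm5039 (0.988), Gm21761 (0.986), Gm20767 (0.982), Gm21304 (0.982), Gm4340 (0.979) and Zscan4-ps1 (0.978). The 3 Zscan4-ps genes share windows with Zscan4 copies.

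A wider list of 51 other genes known from the 2-cell embryo or the 2-cell-like state of ESCs was examined beside them. In −E−N in 2i/LIF, 27 of the 29 tested were called higher and 0 lower. Of the 29, 14 passed the count filter in +E+N already, and 12 of these were called. The other 15 called genes passed it only in another state, so their calls were favoured by the filter. The first by the fitted change was BC061212, at 0 counts in all 3 controls and 37 to 98 in −E−N, which made it at least 57.7-fold higher against a floor of 3 counts over the control group. B020004J07Rik had 1 count over the 3 controls and 136 over the −E−N libraries, a ratio of 137 with an exact 95% counting interval of 24.2 to 5446. In −N in 2i/LIF 4 of 29 were called higher, with Zscan4-ps1 (3.34) and Zscan4-ps3 (3.18) first. These 2 did not pass the filter in +E+N, at 2 to 9 and 12 to 19 counts, so their calls were favoured by it. In −E in 2i/LIF 0 were called by edgeR and 9 were higher at an unadjusted p under 0.05. In FCS/LIF, 7 of 31 were called higher in −E, with Gm13078 (2.82) and Gm12794 (2.15) first. Of the 7, 2 did not pass the filter in +E+N, among them Gm13078 at 4 and 5 counts, so those calls were favoured too. In −N in FCS/LIF 0 were called by edgeR and 21 were lower at an unadjusted p under 0.05. Of all genes tested in 2i/LIF, 18.6% were called in −E−N (9.06% higher), 3.65% in −N and 1.55% in −E. In FCS/LIF, 5.76% of all genes tested were called in −E and 0.173% in −N.

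After the double loss in FCS/LIF, 2 of the list were higher, Gm13078 (1.75) and Gm12794 (1.13), and 3 were lower, with Gm2016 (−2.13) and Gm5662 (−2.01) first. So 5 of the 31 tested were called, where 18.8% of all genes tested were. In 2i/LIF, 15 of 29 were called higher in −E−N against −N, with B020004J07Rik (3.36) and Arg2 (3.11), an arginase gene, first. Against −E, 23 were called, with Zscan4-ps1 (4.08) and BC061212 (4.01) first. In FCS/LIF, 13 of 31 were called higher in −E−N against −N, BC061212 (2.10) and Usp17ld (1.99) first, and 3 were lower against −E, Gm2016 (−2.26) and Gm5662 (−2.16) first. Among the genes of the list, Usp17ld and the Zscan4-ps genes share windows with the members. The group compared against did not pass the filter by itself for 6 of the 15 and 11 of the 23 in 2i/LIF, and for 4 of the 13 in FCS/LIF. Nor did +E+N pass it for Gm13078, 1 of the 2 genes higher after the double loss in FCS/LIF. The shares of all genes called were 6.76% against −N and 13.1% against −E in 2i/LIF, and 10.1% and 5.05% in FCS/LIF.

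**Figure D5:**
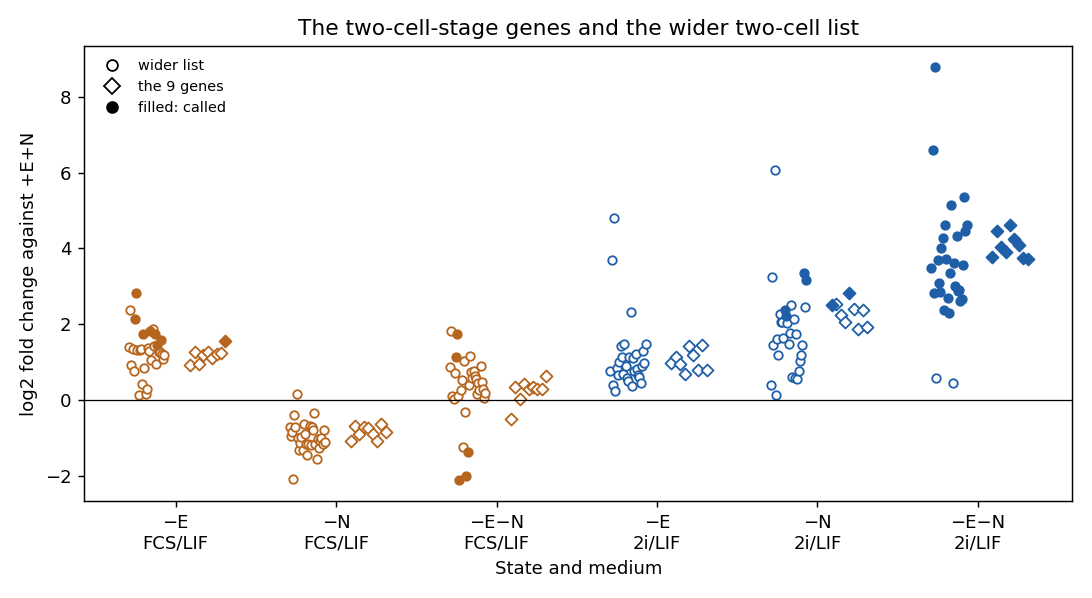
log2 fold change against +E+N of the same medium for the tested genes of the wider 2-cell list (circles) and the 9 tested members (diamonds), filled where called. In −E−N in 2i/LIF 27 of 29 circles and 9 of 9 diamonds are filled, and the highest circle is BC061212, whose controls are at 0 counts.

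Of 6 names known to switch this programme on, 5 have a row. None of the 5 tested in FCS/LIF or of the 4 tested in 2i/LIF was called higher against +E+N. With so few genes this is near the share of all genes, 9.06% called higher in −E−N in 2i/LIF. In −E−N, 2 of the 4 were called lower in 2i/LIF and 3 of the 5 in FCS/LIF. Of all genes tested, 18.6% and 18.8% were called there in either direction. Dux, the homeobox factor that activates 2-cell genes, has no row under that symbol, and the row Duxf3 was read for it. Duxf3 read 0.05, 0.13 and 0.03 TPM for +E+N in 2i/LIF, 0.08, 0.13 and 0 for −E, 0.13, 0.14 and 0.13 for −N, and 0.32, 1.02 and 1.34 for −E−N. All 3 −E−N libraries were the highest, but the gene did not pass the filter in 2i/LIF and so could not be called there. In FCS/LIF it read 0.07 and 0.19 TPM for +E+N, 0.46 and 0.8 for −E, 0.17 and 0.02 for −N, and 0.32 and 0.24 for −E−N, and its change in −E was 2.11 (adjusted p = 0.0542, edgeR). Dppa2, which acts upstream of Dux, fell by 1.00 in −E−N in 2i/LIF and by 0.66 in FCS/LIF. In −E in 2i/LIF it lay higher, at 151 to 178 TPM against 100 to 131 in +E+N, and was not called. Tbx3, a T-box factor of naive ESCs that has been linked to Zscan4 expression, fell by 1.54 in −E−N in 2i/LIF, by 0.59 in −N in 2i/LIF, by 1.84 in −E in FCS/LIF and by 1.59 in −E−N in FCS/LIF.

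Of 28 genes known to hold the programme down, such as chromatin assembly and histone methylation factors, 2 were called lower and 0 higher in −E−N in 2i/LIF. They were Zfp42 (Rex1), which fell by 1.12, and Uhrf1, a factor that maintains DNA methylation, which fell by 0.64. In that comparison 18.6% of all genes tested were called. In 2i/LIF 0 of the 28 were called by edgeR in −E, with 6 at an unadjusted p under 0.05, and 0 in −N, with 4. The shares of all genes called were 1.55% in −E and 3.65% in −N. In FCS/LIF, Zfp42 fell by 1.77 in −E and by 3.44 in −E−N, where Rif1 fell by 0.66 too and E2f6 rose by 0.63. Of the 28, 1 was called in −E and 4 in −E−N there, where 5.76% and 18.8% of genes tested were called. Zfp42 stood at 388 and 372 TPM for +E+N, 130.2 and 112 for −E, 324 and 303 for −N, and 39.2 and 39.6 for −E−N in FCS/LIF, and at 161, 195 and 146 in −E−N against 329 to 382 in +E+N in 2i/LIF. The response of Zfp42 to −E−N differed between media by 2.28 on the log2 scale (2i/LIF minus FCS/LIF, adjusted p = 1.6e-07, edgeR).

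Esrrb and Nr5a2 RNA levels were read in the same libraries. In −E−N in 2i/LIF, Esrrb fell by 1.97 and Nr5a2 by 1.05 on the log2 scale, and in FCS/LIF they fell by 3.39 and 1.99. In −E in FCS/LIF they fell by 2.18 and 0.98. Markers of 2 other early lineages were measured beside the members. The 5 trophoblast markers summed to 2.02 to 2.46 TPM in +E+N and 29.9 to 43.2 in −E−N in 2i/LIF, where Gata3, Elf5 and Hand1 stayed under a mean of 1 TPM, and to 38.7 to 39.7 and 72.5 to 91.0 in FCS/LIF. The 6 primitive endoderm markers summed to 2.21 to 3.11 and 6.18 to 8.27 TPM in 2i/LIF, where Gata6, Gata4, Dab2 and Pdgfra stayed under a mean of 1 TPM, and to 10.2 to 14.7 and 24.3 to 26.6 in FCS/LIF. The endoderm sums hide single markers that moved in opposite directions. Of the 5 tested in 2i/LIF, the double loss raised 2 past the threshold and lowered 1, where 18.6% of genes tested were called. The log2 fold changes of these 5 ran from −1.52 to 3.12. In FCS/LIF those of the 6 markers ran from −1.09 to 1.57, and 1 marker passed the threshold, with a rise. Such bulk sums do not show whether cells of these lineages were present. A link between these markers and the rise of the 2-cell genes was not tested.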

How the data were processed

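RNA was sequenced from EKOiE and EKOiE NrKO ESCs in 20 libraries, and 69 ChIP-seq samples of the series were not used here. Per the methods, stranded poly-A libraries were read as pairs, aligned with STAR and counted with RSEM on mm10, with versions and annotation not given in the sources used here. The authors deposited RSEM's expected counts, which are estimated counts, as whole numbers, and these were used as deposited. The deposited TPM values, the authors' length-corrected level, were used as they stand for comparisons between genes. Of 54238 rows, 92 spike-in rows were at 0 throughout and were left out.

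The test took genes that reached 20 counts in every replicate of 1 or more groups and used edgeR 4.0.16 in R 4.3.3 (quasi-likelihood, TMM), with 1 fit of the 4 states per medium and 1 fit of all 20 libraries for differences between media. Calls used an adjusted p under 0.01 and, apart from interactions and differences of responses, a fold change over 1.5, as in the study. Family sums were tested in tables where the copies were replaced by their sum. Alternatives used DESeq2 1.42.0, limma 3.58.1 on log2(TPM + 1), no filter, DESeq2 size factors, the replicate number as a block, added Zscan4-ps genes and left-out libraries. The fits were tested on simulated data. Gene positions come from the GENCODE annotation of mm10.

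To see whether replicate numbers pair libraries, the deviations from the group means were correlated across genes. In 2i/LIF, r was over 0.1 in 17 of 18 same-number pairs (0.00734 to 0.658), the exception being replicate 2 of +E+N and −E−N, so the blocked value stands beside results of the other comparisons where it changes a call.

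Every member is named in every library. From the lists of other 2-cell genes, activators and repressors, the 2 largest rises and 2 largest falls called against +E+N are named. For the other 2-cell genes those called in −E−N against each single loss are named too. Genes of the lists called as an interaction or between media are not named, apart from Zfp42. Also named are the 8 genes most like the Zscan4 sum and, in any case, Dux, Zfp42, Tbx3, Esrrb and Nr5a2. The members and lists were chosen with earlier results of these data known. Counting intervals cover counting error only.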

Additional observations from a re-analysis of the deposited data

Results flagged for a closer look

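The results listed here are those whose response differed between 2i/LIF and FCS/LIF by the test of that difference itself (edgeR, fit of all 20 libraries, adjusted p under 0.01). Groups of 2 or 3 libraries were not searched for single outlying samples.

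For the response to −E−N, the difference on the log2 scale was 4.3 for Zscan4e (adjusted p = 0.000573, edgeR), 4.25 for Zscan4a, 4.08 for Zscan4b, 3.98 for Zscan4c, 3.87 for Zscan4f and 3.45 for Zscan4d. It was 3.77 for Tcstv3, 3.45 for Zfp352 (adjusted p = 0.00969, edgeR) and 3.05 for Usp17lc. For the family sums it was 3.96 for Zscan4 and 3.69 for Tcstv1 with Tcstv3 (adjusted p = 0.00266, edgeR). All 3 libraries of −E−N in 2i/LIF lay above all 3 controls for each of these genes, whereas in FCS/LIF the 2 groups overlapped in CPM for 7 of the 9.

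For the response to −N, Zscan4a differed by 3.57 (adjusted p = 0.00775, edgeR), with its −N libraries above the controls in 2i/LIF and below them in FCS/LIF.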

How the results depend on the processing

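In 2i/LIF, −E−N against +E+N kept all 9 tested members called under every alternative run, libraries left out included, with the Zscan4 sum between 3.51 and 4.43 over libraries left out. DESeq2 size factors and the Zscan4-ps genes added to the sum ended no call of a count or of the Zscan4 sum. For the results that follow the cause was not tested, and the number of libraries, 2 or 3 a group, limits all of them. The shares of all genes called under these alternatives, the block included, are not given, so their counts are not set against all genes. For FCS/LIF, DESeq2 called 4 members after loss of Esrrb, 1 after loss of Nr5a2, 2 in −E−N against −N and 1 against −E. In 2i/LIF it called 7 in −N and 6 in −E−N against −N, with the Zscan4 sum called at 1.77. For the response to −N between media it called 7, with the sum called at 3.23. Without a filter, edgeR called 9 members in −E, 5 in −N, and 7 each in −E−N against −N and against −E in FCS/LIF, with the sum called at 1.10, −0.85, 1.02 and −0.93. In 2i/LIF it called 7 in −N and 8 in −E−N against −N (sum called at 1.76), and for the response to −N 9 (sum called at 3.25). limma on log2(TPM + 1) called 0 members in −E−N against −N in FCS/LIF, 0 in −N and 1 in −E−N against −N in 2i/LIF, 4 in +E+N between media, 0 for the response to −N, and 8 in −E−N against −E in 2i/LIF and 6 for the response to −E−N in place of 9 each. The Zscan4 sum in −N in 2i/LIF was then 2.25 and not called. By limma the FCS/LIF interaction turned to −0.045 for Zscan4f, −0.27 for Tcstv3 and −0.27 for the Tcstv sum. The 2i/LIF interaction turned to 0.31 for Zfp352, and the difference of the response to −E to −0.50 for Zscan4f and −0.43 for Zfp352, Zscan4e and Zscan4a. With the 2i/LIF libraries numbered 3 left out together, an alternative chosen after seeing the data, 5 members were called in −N and 5 in −E−N against −N (sum called at 1.61), and 5 for the response to −N (sum called at 3.02), while the response to −E turned to −0.068 for Zscan4f and −0.11 for Zscan4a.

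With the replicate number as a block, the 2i/LIF libraries gave 3 called members for −E, 8 for −N and 9 for −E−N against −N, with the Zscan4 sum called in −E at 1.00 and in −E−N against −N at 1.73. In FCS/LIF the block gave 7 in −E, 5 in −E−N against −N and 4 against −E, with the sum called at 1.09, 1.00 and −0.90. In FCS/LIF the r of same-number deviations was 0.116 to 0.535, but with 2 libraries a state both numbers give the same r, so the numbers were not taken as pairing the libraries there. The block changed no other count or call of the sum.

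Over libraries left out in turn, members called ranged from 0 to 3 in −E, 0 to 3 in −E−N against −N and 0 to 1 against −E in FCS/LIF. Those in 2i/LIF ranged from 0 to 6 in −N and 0 to 4 in −E−N against −N. Between media they ranged from 1 to 8 in +E+N, 0 to 5 for the response to −N and 5 to 9 for −E−N. The Zscan4 sum ranged from 0.82 to 1.16 in −E−N against −N and −0.14 to 0.58 in −E−N against +E+N in FCS/LIF, −0.47 to 0.34 for the FCS/LIF interaction, and 1.89 to 2.65 in −N in 2i/LIF. Between media it ranged from −2.41 to −1.70 in +E+N, −0.55 to 0.37 for the response to −E and 2.74 to 3.53 for −N. Sign changes of single uncalled differences came with these ranges. In −E−N in FCS/LIF they were −0.19 to 0.29 for Zscan4c, −0.030 to 0.87 for Zscan4f, −0.052 to 0.76 for Zscan4e, −0.30 to 0.82 for Zfp352, −0.29 to 1.37 for Tcstv3 and −0.33 to 1.25 for the Tcstv sum. For the FCS/LIF interaction they were −0.74 to 0.053 for Zscan4a, −0.67 to 0.081 for Zscan4b, −0.43 to 0.45 for Zscan4c, −0.42 to 0.34 for Zscan4d, −0.71 to 0.17 for Zscan4e and −0.41 to 0.50 for Zscan4f. There they were also −0.94 to 0.035 for Zfp352, −0.57 to 0.29 for Usp17lc, −0.92 to 0.74 for Tcstv3 and −0.80 to 0.72 for the Tcstv sum. For the 2i/LIF interaction they were −0.85 to 0.50 for Zfp352, −0.22 to 0.92 for Zscan4e, −0.033 to 1.17 for Zscan4f and −0.25 to 0.82 for Zscan4a. For the response to −E they were −0.37 to 0.46 for Zscan4a, −0.82 to 0.17 for Zscan4b, −0.58 to 0.49 for Zscan4c, −0.40 to 0.57 for Zscan4e, −0.49 to 0.46 for Zscan4f, −0.36 to 0.55 for Zfp352, −1.53 to 0.13 for Tcstv3 and −1.42 to 0.10 for the Tcstv sum.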

Other observations

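The other Usp17-like genes, none of them a member, were read beside Usp17lc. Usp17le stood at 0.54 to 0.82 TPM in +E+N, 0.97 to 1.73 in −E, 1.53 to 2.32 in −N and 4.73 to 12.9 in −E−N in 2i/LIF, and at 1.36 and 1.67, 3.72 and 6.11, 0.71 and 0.87, and 1.97 and 2.76 in the same states of FCS/LIF. Usp17lb stood at 1.06 to 1.32 TPM in +E+N and 5.06 to 10.0 in −E−N in 2i/LIF, and Usp17la at 0.42 to 0.56 and 2.52 to 5.94. For each of the 3 genes the −E−N libraries of 2i/LIF lay above every control library of that medium. They shared few windows of 150 bases with another gene, 0.754% for Usp17le, 2.23% for Usp17lb and 1.28% for Usp17la.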
